A study of Mus musculus with 170 samples.

Results

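B cells sorted from the bone marrow of old mice were compared with B cells sorted from the bone marrow of young mice. The comparison used 9 of 170 RNA sequencing libraries of a survey of 23 sorted cell types. All libraries whose titles name B cells were taken, 4 from old mice aged 22 to 24 months and 5 from young mice aged 2 months, and every gene of the deposited count table was considered. All mice were on a C57/Bl6 background, received no treatment named in the labels, and 5 healthy animals were pooled for each library, so the spread between libraries is a spread between pools. Sex was not given in the sources used here, and the surface markers behind the sort were not given either.

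B cells are made in the bone marrow. A precursor there joins the gene segments of its heavy chain and then of a light chain, divides between these steps, and becomes an immature cell with IgM on its surface. Mature B cells carry IgM and IgD, present peptides to T cells on MHC class II molecules, circulate through spleen and lymph nodes, and return in part to the marrow, where plasma cells that secrete switched antibody also live.

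The label was checked against the B cell genes Cd79b, a chain of the B cell receptor complex, and Pax5 and Ebf1, transcription factors that set B cell identity. In CPM (counts scaled to a library total of 1000000, by the library totals alone in this check), Cd79b was at least 1352, Pax5 at least 550 and Ebf1 at least 1926 in the 9 libraries. All 22 other cell types had medians below those minima, and the nearest for Ebf1 were muscle fibroblasts with a median of 1128 CPM. The title of old replicate 1 names B cells while its other tags name visceral fat adipocytes. The adipocyte gene Adipoq was at most 2.96 CPM in any B cell library, against a median of 3825 CPM in adipocytes. Fabp4, Plin1 and Cfd were at most 7.70, 1.78 and 0.830 CPM. Car3 was at 47.8 to 89.3 CPM, against a median of 81896 CPM in adipocytes. With the scaling used further on, 8 adipocyte markers summed to 99.2 CPM in old replicate 1. They summed to 88.9 to 118 CPM over the old and 73.1 to 99.1 CPM over the young libraries. The title was followed. Young replicate 2 stood apart from the other young libraries in pairwise comparison. Several results that turn on it or on old replicate 1 are given without them as well.

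Total counts were 1688999 to 2310935 in old and 2030252 to 2746591 in young libraries. Of 11174 genes tested with edgeR's quasi-likelihood test and Benjamini-Hochberg adjustment, 285 (2.55%) were higher and 82 (0.734%) lower in old libraries at an adjusted p under 0.05. The log2 fold change, old minus young, had a median of -0.002 over all genes tested. Among the higher genes 110 were above 4-fold, and among the lower genes 1 was. The lower count depended on single libraries. It was 41 without old replicate 1, 48 without old replicate 4, 51 without young replicate 1 and 165 without young replicate 2, while the higher count ran from 244 to 309 when any library was left out. In what follows levels are CPM with TMM scaling, errors of levels are the SD between libraries (n = 4 old, 5 young), errors of log2 fold changes are standard errors, and adjusted p is from this edgeR test. Library preparation was 3-prime biased, so levels are compared within a gene.

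**Figure D1:**
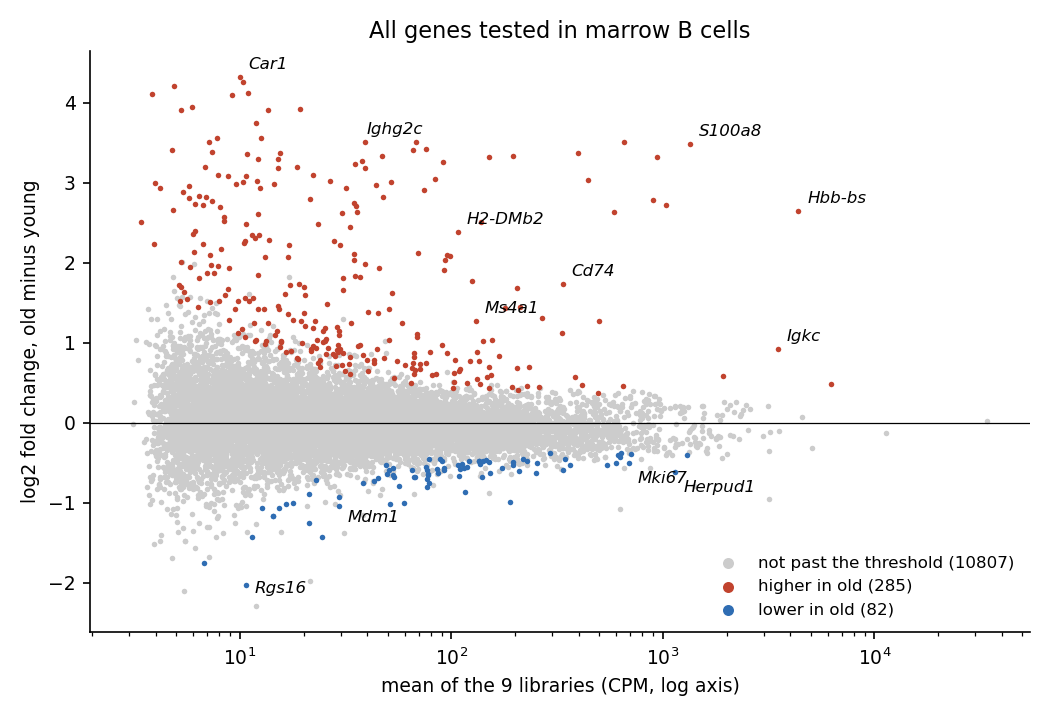
Log2 fold change, old minus young, against the mean level over the 9 B cell libraries (CPM, log axis) for the 11174 genes tested, with genes past an adjusted p of 0.05 in colour. The 285 higher genes reach a log2 fold change of 4.32 (Car1) and the 82 lower genes reach -2.03 (Rgs16).

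Genes of MHC class II presentation were higher in old B cell libraries. Of 9 tested members 7 rose and 0 fell, with a median log2 fold change of 1.68 against -0.002 over all genes tested, where 2.55% of genes rose. The 7 were the peptide-binding chains H2-Aa, H2-Ab1 and H2-Eb1, the invariant chain Cd74, which occupies the groove until the endosome, and H2-DMa, H2-DMb1 and H2-DMb2, chains of the chaperone that exchanges the invariant chain fragment for peptide. In bulk libraries more cells of a kind and more RNA per cell cannot be told apart.

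The promoters of 4 of these genes are shown because class II genes share a promoter code, an X box read by the RFX complex followed by a Y box read by NF-Y, on which the coactivator Ciita assembles. Sequences are from RefSeq (GRCm38.p6), 250 bases before to 50 bases after the start, in the direction of the gene. Capitals mark matches to the X box letters AACNNATG and the Y box letters ATTGG, searched on both strands, where a match on the other strand reads CCAAT. The motifs do not overlap each other in these windows.
H2-Aa promoter, chr17:34287774-34288073, minus strand: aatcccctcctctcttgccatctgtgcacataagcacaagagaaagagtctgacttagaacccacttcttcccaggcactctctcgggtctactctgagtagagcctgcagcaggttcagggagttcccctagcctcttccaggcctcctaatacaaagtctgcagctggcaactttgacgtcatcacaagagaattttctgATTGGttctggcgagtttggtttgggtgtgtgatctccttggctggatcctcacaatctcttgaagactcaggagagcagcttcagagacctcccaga
H2-Eb1 promoter, chr17:34305617-34305916, plus strand: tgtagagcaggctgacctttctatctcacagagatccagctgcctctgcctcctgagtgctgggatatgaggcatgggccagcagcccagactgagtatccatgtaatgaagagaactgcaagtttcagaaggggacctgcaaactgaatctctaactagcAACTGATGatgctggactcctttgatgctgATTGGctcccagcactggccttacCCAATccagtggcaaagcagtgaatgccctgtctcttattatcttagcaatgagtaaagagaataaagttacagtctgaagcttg
H2-DMb1 promoter, chr17:34152941-34153240, plus strand: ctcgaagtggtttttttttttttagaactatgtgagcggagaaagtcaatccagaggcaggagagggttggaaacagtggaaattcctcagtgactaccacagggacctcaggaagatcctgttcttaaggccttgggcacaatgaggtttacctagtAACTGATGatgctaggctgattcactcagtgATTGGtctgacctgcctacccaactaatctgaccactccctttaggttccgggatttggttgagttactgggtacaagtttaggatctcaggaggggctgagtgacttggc
H2-DMb2 promoter, chr17:34144999-34145298, plus strand: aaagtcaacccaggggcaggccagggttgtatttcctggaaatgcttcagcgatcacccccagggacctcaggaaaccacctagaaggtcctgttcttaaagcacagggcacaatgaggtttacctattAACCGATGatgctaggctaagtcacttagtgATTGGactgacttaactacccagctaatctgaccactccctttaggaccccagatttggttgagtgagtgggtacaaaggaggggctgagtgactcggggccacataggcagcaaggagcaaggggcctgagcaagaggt
Promoters were found for 5 of the 7 risen genes, and all 5 held the Y box letters, which 37.4% of 32851 promoters hold. H2-DMa has 2 promoters in the table, and 1 of them held the letters, so the count is per gene while the share is per promoter. The X box letters were in 3 of the 5, H2-Eb1, H2-DMb1 and H2-DMb2, against 8.86% of all promoters, and both motifs together were in 4.01% of all promoters. A longer X box pattern of 11 bases, searched first, was in H2-Eb1 and H2-DMb1 but not in H2-DMb2, and in 0.895% of all promoters. In H2-Eb1 the X box letters started 89 bases before the start and the Y box letters 59 bases before it. In H2-DMb1 the distances were 92 and 61 bases, and in H2-DMb2 they were 121 and 90 bases. H2-Aa held the Y box letters alone, 48 bases before its start. H2-Ob, a member of the list that did not change past the threshold, held both motifs and the longer X box pattern too. So did H2-Eb2, which was too low to test, while H2-Oa, also too low, held the Y box letters alone. The motifs were thus not confined to the risen genes. A match is a description of letters and is no evidence of binding.

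Cd74 (chr 18, 60803848 to 60812652) had 597, 501, 521 and 574 CPM in old libraries, against 159, 182, 153, 158 and 173 CPM in young libraries. Every old library was far above every young one, with a log2 fold change of 1.73 ± 0.10, adjusted p = 2.44e-08. H2-Aa (chr 17, 34282744 to 34287823) had 302, 308, 357 and 351 CPM in old libraries, against 116, 112, 91.9, 85.0 and 108 CPM in young libraries. Old and young libraries did not overlap, and the change was 1.68 ± 0.12, adjusted p = 1.32e-07. H2-Eb1 (chr 17, 34305867 to 34316674) had 124, 114, 122 and 126 CPM in old libraries, against 39.2, 22.5, 26.1, 25.8 and 25.8 CPM in young libraries. Young replicate 1 was the highest young library and still lay far under every old library, with a log2 fold change of 2.12 ± 0.15, adjusted p = 1.38e-07.

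H2-Ab1 averaged 399 ± 48.0 CPM in old and 162 ± 22.9 CPM in young libraries (1.30 ± 0.13, adjusted p = 3.64e-06). H2-DMb2 had 226, 153, 182 and 215 CPM in old libraries, against 43.6, 14.8, 51.1, 49.1 and 29.6 CPM in young libraries, the highest fold change of the list (2.39 ± 0.25, adjusted p = 8.01e-06). The old libraries were all above the young ones, of which young replicate 2 was the lowest. H2-DMa averaged 61.5 ± 8.22 CPM in old and 17.2 ± 5.51 CPM in young libraries (1.82 ± 0.21, adjusted p = 2.76e-05) and H2-DMb1 15.4 ± 3.84 CPM in old and 5.32 ± 2.04 CPM in young libraries (1.52 ± 0.31, adjusted p = 0.00913). H2-DMb1 and H2-DMb2 are near copies, so the split of reads between them is uncertain, and H2-DMb1 lost the call without old replicate 1.

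The remaining tested members did not pass. H2-Ob, a chain of the H2-O molecule that restrains H2-DM in B cells, had 77.8 to 97.6 CPM in old and 61.6 to 81.0 CPM in young libraries (log2 0.29 ± 0.13, adjusted p = 0.279). Ciita, the coactivator itself, had 23.0 to 43.5 CPM in old and 16.2 to 34.6 CPM in young libraries (log2 0.64 ± 0.24, adjusted p = 0.195), and the groups overlapped for both. H2-Oa and H2-Eb2 were too low to test. The list kept 6 to 8 higher members and 0 lower under every alternative run. Class II genes are also expressed by dendritic cells and macrophages. The summed level of 9 dendritic cell markers was 14.2 to 27.1 CPM in old and 14.5 to 19.3 CPM in young libraries. That of 10 monocyte and macrophage markers was 692 to 1451 CPM in old and 102 to 164 CPM in young libraries. Of the 5 tested among these 10, 3 rose, with a median log2 fold change of 3.03. Neutrophil, monocyte and erythroid markers rose in the same libraries, as given further on, and their part in the class II change was not tested.

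**Figure D2:**
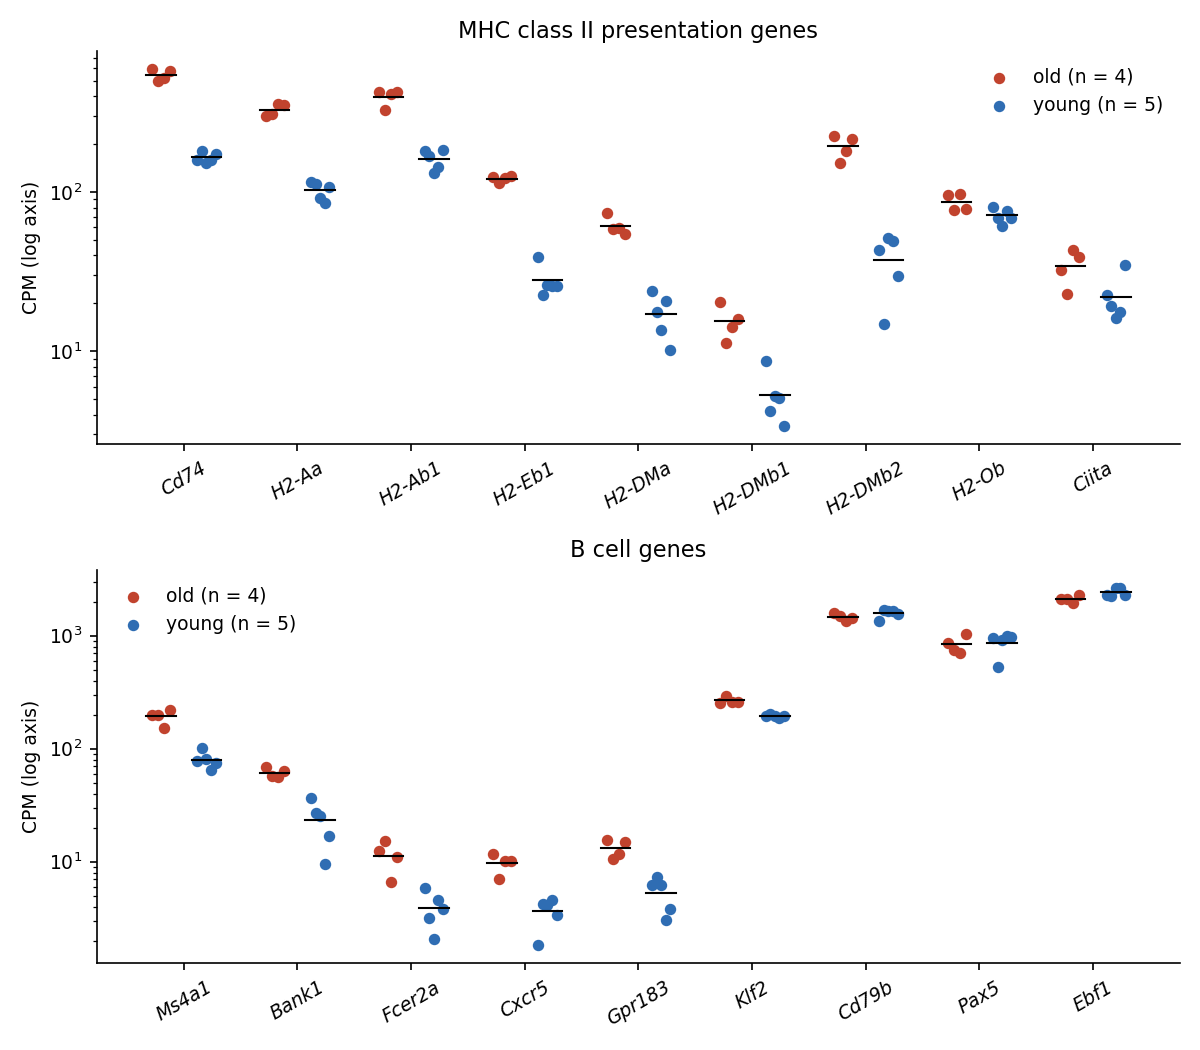
Level of class II genes (top) and B cell genes (bottom) in each library (CPM, log axis), old left of young, with the mean as a bar. Cd74 lies between 501 and 597 CPM in old and between 153 and 182 CPM in young libraries, while Cd79b, Pax5 and Ebf1 overlap.

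Some genes of the B lineage and of mature B cells rose. Of 15 B lineage genes 2 rose and 0 fell (median log2 fold change -0.08), where 2.55% of all genes tested rose. The 2 were Ms4a1, which encodes CD20, and Bank1, a scaffold in B cell receptor signalling. Of 11 tested genes of mature follicular B cells 5 rose and 0 fell (median 0.28), among them Klf2, Gpr183, Cxcr5 and Fcer2a.

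Ms4a1 (chr 19, 11249675 to 11266241) had 199, 199, 153 and 222 CPM in old libraries, against 78.1, 101, 80.9, 65.2 and 75.2 CPM in young libraries. Every old library was above every young one, by a log2 fold change of 1.27 ± 0.14, adjusted p = 1.69e-05. Bank1 had 69.2, 57.2, 55.7 and 64.1 CPM in old libraries, against 36.7, 27.1, 25.6, 9.61 and 16.9 CPM in young libraries. The old libraries lay close together while the young ones spread from young replicate 4 up to young replicate 1, and the change was 1.39 ± 0.25, adjusted p = 0.00332.

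Klf2, a transcription factor of quiescent lymphocytes that drives their trafficking genes, averaged 268 ± 18.1 CPM in old and 195 ± 5.19 CPM in young libraries (0.46 ± 0.10, adjusted p = 0.0103). Fcer2a, the low affinity IgE receptor CD23 of follicular B cells, had only 6.58 to 15.3 CPM in old and 2.09 to 5.81 CPM in young libraries (1.51 ± 0.35, adjusted p = 0.0243). Cxcr5, the follicle homing receptor, and Gpr183, an oxysterol receptor that positions B cells in follicles, were as low and rose by log2 1.44 (adjusted p = 0.0246) and 1.29 (adjusted p = 0.0285). Klf2 lost the call without old replicate 2 (adjusted p up to 0.0966 over its alternatives). The calls of Fcer2a, Cxcr5 and Gpr183 held in only 8, 8 and 9 of 15 alternatives (adjusted p up to 0.0939, 0.135 and 0.146). All 3 were lost without any of old replicates 1 and 4 and young replicate 5. The count of the list was 2 without old replicate 1, without old replicate 4, without young replicate 5 or without both old replicate 1 and young replicate 2, and 3 without old replicate 2.

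Other members of the mature list did not pass. Ccr7, the receptor for entry into T cell zones, had 31.9 to 46.4 CPM in old and 30.9 to 57.9 CPM in young libraries (log2 -0.20, adjusted p = 0.692), and Tnfrsf13c, the BAFF receptor, 140 to 183 CPM in old and 113 to 154 CPM in young libraries (log2 0.25, adjusted p = 0.362). Cd22, an inhibitory lectin of the B lineage list, was at log2 0.61 ± 0.17, adjusted p = 0.06. Cd79b, Pax5 and Ebf1 had log2 fold changes of -0.11, -0.05 and -0.20, with adjusted p from 0.351 to 0.925. The summed level of the 15 B lineage genes was 6689 to 7772 CPM in old and 7457 to 8181 CPM in young libraries. Of genes typical of marginal zone (5 of 6 tested), germinal centre (2 of 7), B-1 (3 of 6) and age-associated B cells (3 of 12), 0 passed in either direction. The other members were too low to test, so these lists were judged only in part. Tbx21 and Itgax, which mark age-associated B cells, were at most 1.52 and 0.536 CPM in old libraries and 1.45 and 0.522 CPM in young libraries.

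The summed level of 19 precursor genes was 7299 to 8287 CPM in old and 7342 to 9154 CPM in young libraries. Of the 18 tested 2 rose and 0 fell (median -0.01), against 2.55% of all genes tested that rose. The 2 were Spn, the sialophorin CD43, and Vpreb2, a surrogate light chain gene. Spn had 76.1, 76.0, 75.9 and 60.2 CPM in old libraries, against 37.8, 49.6, 45.9, 36.9 and 40.5 CPM in young libraries (log2 0.77 ± 0.14, adjusted p = 0.00326). Old replicate 4 was the lowest old library and lay above all young ones. Neutrophil and monocyte markers rose in the same libraries, as given further on, and their part in the Spn values was not tested. Vpreb2 averaged 177 ± 57.8 CPM in old and 96.0 ± 6.38 CPM in young libraries (0.88 ± 0.17, adjusted p = 0.00654), and its near copy Vpreb1 789 ± 221 CPM in old and 629 ± 46.0 CPM in young libraries (0.33 ± 0.15, adjusted p = 0.316), so reads may be split between them.

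The surrogate light chain gene Igll1 had 1068, 474, 925 and 606 CPM in old libraries, against 685, 543, 838, 1203 and 703 CPM in young libraries. The groups overlapped throughout (log2 -0.05 ± 0.23, adjusted p = 0.954). Rag1, a subunit of the recombinase, averaged 310 ± 41.5 CPM in old and 390 ± 53.9 CPM in young libraries (-0.33 ± 0.13, adjusted p = 0.208), and Rag2 was at log2 -0.21 (adjusted p = 0.567). The interleukin 7 receptor gene Il7r (log2 -0.04, adjusted p = 0.935), Dntt, which adds bases at V(D)J joints (0.37, 0.216), and the transcription factor genes Sox4 (-0.38, 0.126) and Lef1 (adjusted p = 0.999) did not pass either. Of 12 V(D)J joining genes 0 passed, with a median of -0.13. In the precursor list 2 genes rose and 1 fell without young replicate 2.

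Immunoglobulin transcripts differed in amount and in isotype. Of 11 tested constant region genes 5 rose and 0 fell, against 2.55% of all genes tested that rose. The median log2 fold change was 0.92, and 0.35 without old replicate 4 with 5 genes called there too. The 5 were Igkc, the kappa light chain, Ighd, the IgD heavy chain, and the switched heavy chains Igha, Ighg2b and Ighg2c. Ighm, the IgM heavy chain, averaged 4693 ± 416 CPM in old and 4451 ± 245 CPM in young libraries (log2 0.08 ± 0.09, adjusted p = 0.774).

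Ighd (chr 12, 113406604 to 113416324) had 191, 209, 190 and 198 CPM in old libraries, against 98.8, 107, 97.6, 95.1 and 87.4 CPM in young libraries. The 4 old libraries sat close together and above all the young ones (log2 1.02 ± 0.10, adjusted p = 6.37e-06). Igkc had 4810, 4118, 4396 and 5718 CPM in old libraries, against 2232, 2886, 2644, 2640 and 2139 CPM in young libraries (log2 0.92 ± 0.12, adjusted p = 0.000108), with every old library above every young one. The lambda constant genes Iglc1, Iglc2 and Iglc3, which share nearly identical stretches, were at log2 0.29, 0.28 and 0.08 and did not pass (adjusted p = 0.177, 0.311 and 0.8).

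Ighg2c (chr 12, 113285325 to 113288932) had 142, 58.3, 135 and 196 CPM in old libraries, against 17.4, 5.63, 9.39, 13.1 and 16.9 CPM in young libraries. All old libraries were above all young ones, and old replicate 2 was the lowest of them (log2 3.41 ± 0.32, adjusted p = 2.25e-06). Igha had 199, 164, 182 and 120 CPM in old libraries, against 45.0, 42.6, 31.8, 47.5 and 27.0 CPM in young libraries (log2 2.09 ± 0.18, adjusted p = 7.27e-07), again without overlap. Ighg2b had 261, 92.5, 99.7 and 567 CPM in old libraries, against 44.7, 31.7, 59.5, 51.6 and 39.7 CPM in young libraries (log2 2.51 ± 0.41, adjusted p = 0.00136). Old replicates 4 and 1 were high for this gene and old replicates 2 and 3 lay nearer to the highest young library. Ighg3 and Ighg1 overlapped between the ages, and 60.6 CPM of Ighg1 in old replicate 4 was far above all other libraries, of which the next highest had 16.2 CPM.

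As shares, switched isotypes made up 11.3% ± 5.13 of heavy chain constant counts in old and 2.94% ± 0.799 in young libraries (SD), a ratio of 3.84. IgD made up 3.58% ± 0.186 in old and 2.07% ± 0.103 in young libraries. Kappa made up 68.1% ± 3.16 of light chain constant counts in old and 57.0% ± 1.33 in young libraries, and immunoglobulin genes 1.26% ± 0.101 of all counts in old and 0.925% ± 0.0859 in young libraries. The exact two-sided permutation test, with 126 possible assignments, gave p = 0.00794 for each of these 4 shares, the smallest it can give, and 0.0139 adjusted over the 7 properties tested. The libraries of the ages did not overlap in any of the 4. Heavy chain variable segments took 0.00791% ± 0.00108 of counts in old and 0.00714% ± 0.000798 in young libraries (exact permutation p = 0.246). At a common 114 such counts, 53.6 ± 3.39 distinct segments were seen in old and 52.1 ± 3.85 in young libraries (exact permutation p = 0.563), so a difference in their number was not detectable at this depth.

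**Figure D3:**
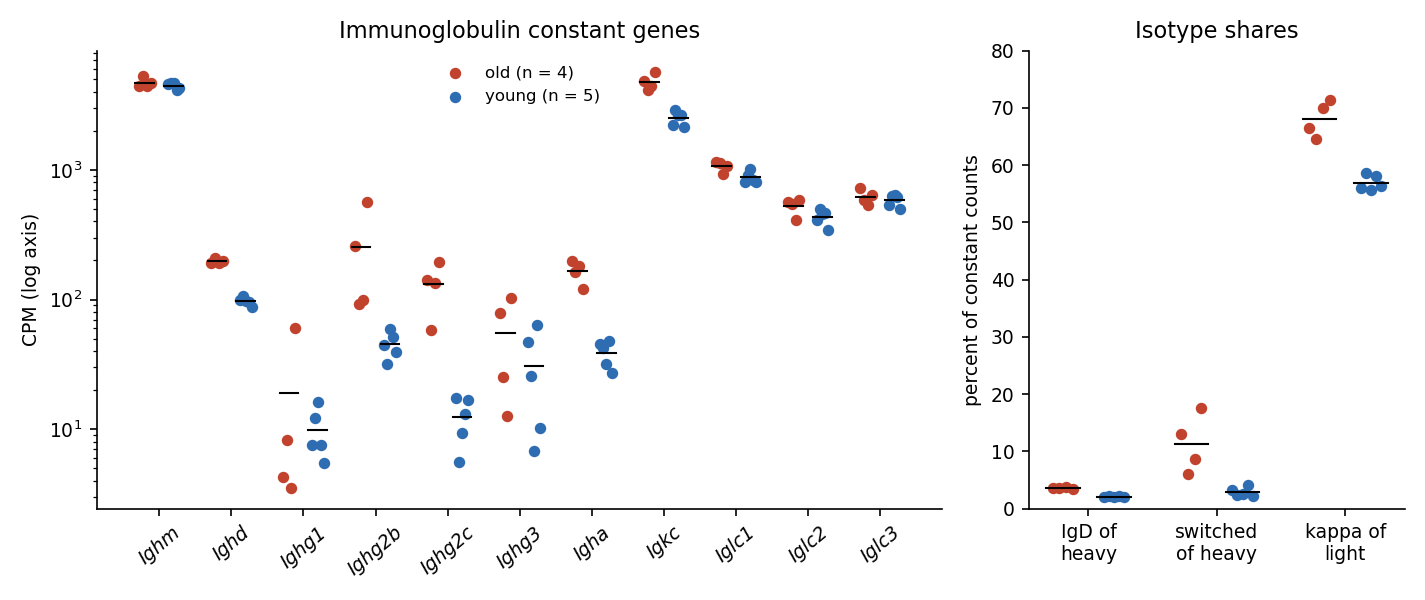
Level of immunoglobulin constant genes in each library (left, CPM, log axis) and shares of constant counts (right, percent), old left of young, with the mean as a bar. Switched isotypes run from 5.97% to 17.7% in old and from 2.25% to 4.17% in young libraries, and Ighm overlaps.

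Of 10 tested plasma cell genes 2 rose and 0 fell, with a median of -0.04, against 2.55% of all genes tested that rose. Jchain, which joins the units of secreted IgA and IgM, had 191, 113, 159 and 156 CPM in old libraries, against 37.0, 38.7, 43.3, 59.7 and 28.7 CPM in young libraries (log2 1.91 ± 0.18, adjusted p = 3.61e-06). Slpi, a secreted protease inhibitor that neutrophils and epithelia also make, had 74.0, 41.8, 82.5 and 178 CPM in old libraries, against 5.45, 10.2, 10.4, 10.6 and 10.6 CPM in young libraries (log2 3.34 ± 0.34, adjusted p = 8.15e-06). Neither gene overlapped between the ages. Neutrophil markers rose in the same libraries, and their part in the Slpi values was not tested. Xbp1 and Irf4, transcription factors that plasma cells need and that other B cells express, were at log2 0.12 (adjusted p = 0.686) and -0.31 (adjusted p = 0.124). Prdm1, the repressor that sets plasma cell fate, had 6.44 to 10.0 CPM in old and 6.54 to 14.4 CPM in young libraries (adjusted p = 0.723), and Tnfrsf17, the receptor BCMA, was at most 0.506 CPM in old and 0.726 CPM in young libraries.

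Receptor and signalling genes of B cells moved little. Of 18 B cell receptor signalling genes 1 rose and 0 fell, near the 2.55% of all genes tested that rose. The count was 0 without any of old replicates 2, 3 and 4 and young replicates 1, 4 and 5, and 2 without young replicate 2. Of 8 inhibitory receptor genes 1 rose, Pirb, a paired immunoglobulin-like receptor that myeloid cells express too, with 22.5, 24.2, 16.7 and 27.9 CPM in old libraries, against 2.54, 7.39, 5.22, 4.55 and 7.18 CPM in young libraries (2.07 ± 0.30, adjusted p = 0.000321). All old libraries exceeded all young ones, and 2 or 3 members of that list passed without young replicate 1 or old replicate 3. Of 6 genes of Toll-like receptor signalling 1 rose, Ly86, the MD-1 partner of the receptor homologue CD180, at 99.8 ± 13.5 CPM in old and 66.4 ± 3.64 CPM in young libraries (0.59 ± 0.12, adjusted p = 0.00828). Of 14 cytokine and TNF receptors 0 passed (median 0.21), and of 22 transcription factors 1 rose, Klf2, with a median of -0.01, against 2.55% of all genes tested. That count was 0 without old replicate 2, and without young replicate 2 it was 2 with 1 lower. Of 15 trafficking genes 3 rose, among them Cxcr5 and Gpr183, given above. That count was 1 without old replicate 1, old replicate 4 or young replicate 5, and 2 without old replicate 3 or young replicates 1 or 4.

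Interferon and class I genes rose in small numbers. Of 29 interferon-stimulated genes 4 rose and 0 fell (median 0.31), against 2.55% of all genes tested that rose. The 4 were Rsad2, Isg15, Ifitm3 and Ly6a. The summed neutrophil markers averaged 7858 CPM in old and 741 CPM in young libraries, and their part in these values was not tested. Rsad2, which encodes viperin, had 49.9, 44.2, 59.7 and 86.2 CPM in old libraries, against 9.44, 16.5, 22.4, 10.1 and 11.8 CPM in young libraries (log2 2.11 ± 0.25, adjusted p = 4.81e-05). All old libraries were above all young ones, and old replicate 4 was the highest. Ifitm3 averaged 128 ± 32.7 CPM in old and 69.9 ± 7.52 CPM in young libraries (0.87 ± 0.15, adjusted p = 0.00228), Isg15, a ubiquitin-like modifier, 23.5 ± 6.99 CPM in old and 12.6 ± 1.21 CPM in young libraries (0.89 ± 0.23, adjusted p = 0.0398) and Ly6a, the surface protein Sca-1, 123 ± 8.23 CPM in old and 86.4 ± 8.78 CPM in young libraries (0.51 ± 0.11, adjusted p = 0.0138). Isg15 lost the call without any of old replicates 2, 3 and 4 and young replicates 1, 3, 4 and 5 (adjusted p up to 0.184), and Ly6a lost it without old replicate 4 or without both old replicate 1 and young replicate 2. The count was 2 without old replicate 4, and the interferon genes Irf7 and Ifit3 were at log2 0.19 and 0.31 (adjusted p = 0.796 and 0.777).

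Of 18 MHC class I genes 2 rose, H2-Q7 (0.62 ± 0.12, adjusted p = 0.00631), a nonclassical chain whose reads may be shared with its near copies, and the immunoproteasome subunit Psmb9 (0.44 ± 0.11, adjusted p = 0.0343). Over all genes tested 2.55% rose. The median of the list was 0.23 and 17 of the 18 were above 0. The classical chain H2-K1 and the light chain B2m were at log2 0.23 (adjusted p = 0.251) and 0.21 (adjusted p = 0.295). A single gene of the list passed without old replicates 1, 2 or 4 or young replicates 4 or 5 in turn. Psmb9 kept the call in only 6 of 16 alternatives (adjusted p up to 0.115), and H2-Q7 in 16 of 16.

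Of 6 tested cytokine genes 2 rose, against 2.55% of all genes tested that rose. Ltb, the lymphotoxin beta that B cells use to organise lymphoid tissue, had 32.7, 20, 16.7 and 25.2 CPM in old libraries, against 8.35, 11.6, 11.0, 6.07 and 6.76 CPM in young libraries (log2 1.42 ± 0.27, adjusted p = 0.00435). Ccl5, a chemokine of T and NK cells, had 13.4, 23.0, 11.6 and 29.6 CPM in old libraries, against 1.45, 1.76, 0.522, 0.506 and 0.845 CPM in young libraries (log2 4.10 ± 0.43, adjusted p = 9.37e-06). Every old library was far above every young one for Ccl5. Among the marker genes of those cells, the NK cell gene Nkg7 had 14.7 to 26.3 CPM in old and 1.45 to 3.80 CPM in young libraries (log2 3.00 ± 0.33, adjusted p = 1.88e-05), and the T cell receptor complex gene Cd3e at most 3.04 CPM in old and 0.704 CPM in young libraries. Their part in the Ccl5 change was not tested.

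Immediate-early genes, which cells switch on within minutes of stimulation or handling, rose in part. Of 22 tested genes 5 rose and 0 fell, with a median log2 fold change of 0.32 and 20 of 22 above 0, where 2.55% of all genes tested rose. In the same libraries 12 of 12 neutrophil, 3 of 5 monocyte and 11 of 11 erythroid markers rose, and their part in these values was not tested. Fos, a subunit of the AP-1 factor, had 270, 312, 259 and 263 CPM in old libraries, against 111, 97.1, 98.1, 105 and 97.5 CPM in young libraries. The spread within each age was small against the difference (log2 1.44 ± 0.10, adjusted p = 1.67e-07). Fosb, its relative, averaged 60.8 ± 8.97 CPM in old and 31.6 ± 11.4 CPM in young libraries (0.92 ± 0.23, adjusted p = 0.0321), Klf4, a growth-restraining factor, 223 ± 45.8 CPM in old and 125 ± 10.5 CPM in young libraries (0.84 ± 0.13, adjusted p = 0.000856), Ier2 62.9 ± 6.79 CPM in old and 35.8 ± 4.71 CPM in young libraries (0.81 ± 0.14, adjusted p = 0.00286) and Myc, the growth factor-induced regulator, 36.5 ± 6.64 CPM in old and 20.2 ± 3.86 CPM in young libraries (0.86 ± 0.19, adjusted p = 0.0173). The members Jun and Egr1 were at log2 0.30 (adjusted p = 0.216) and 0.52 (adjusted p = 0.113). Fosb lost the call without any of old replicates 1, 2 and 4 and young replicates 3 and 5, and Myc without any of old replicates 2 and 3 and young replicate 5. The count was 3 without old replicate 2 or without young replicate 5. Times from tissue to sort were not given in the sources used here.

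Among 16 genes of the unfolded protein response 1 rose and 1 fell, where 2.55% of all genes tested rose and 0.734% fell. Without both old replicate 1 and young replicate 2, 0 of the 16 rose and 4 fell. Calr, the chaperone calreticulin, averaged 306 ± 22.1 CPM in old and 224 ± 17.8 CPM in young libraries (0.45 ± 0.10, adjusted p = 0.0198), and lost the call without any of old replicates 1 and 2 and young replicates 3 and 5. Herpud1, which helps to clear misfolded proteins from the endoplasmic reticulum, had 853, 1084, 790 and 782 CPM in old libraries, against 1439, 1165, 1455, 1377 and 1296 CPM in young libraries (log2 -0.62 ± 0.12, adjusted p = 0.0051), with all old libraries under all young ones. Hspa5, the chaperone BiP, was at log2 -0.08 (adjusted p = 0.83). Of 13 glycolysis genes (median 0.28), 11 DNA methylation and Polycomb genes (-0.19), 10 BCL2 family genes (0.02) and 5 cyclin-dependent kinase inhibitors (-0.06), 0 passed in either direction.

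Cell division genes leaned lower in old libraries. Of 34 proliferation genes 0 rose and 5 fell, against 0.734% of all genes tested that fell, and the median log2 fold change was -0.33 with 2 of 34 above 0. Without overlap between the ages were 12 of the 34, against 7.1% of all genes tested. The 5 were Ccnb1, the mitotic cyclin B1, Cdc20, which starts the exit from mitosis, the spindle genes Kif11 and Tpx2, and Mki67, the Ki-67 protein of cycling cells.

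Ccnb1 (chr 13, 100778650 to 100786570) had 172, 156, 184 and 131 CPM in old libraries, against 213, 220, 266, 277 and 249 CPM in young libraries (log2 -0.61 ± 0.12, adjusted p = 0.00863). Mki67 had 442, 610, 587 and 606 CPM in old libraries, against 842, 811, 831, 684 and 800 CPM in young libraries. Old replicate 1 was the lowest of all libraries and the young libraries were all above the old ones (log2 -0.50 ± 0.12, adjusted p = 0.0231). Cdc20 averaged 72.7 ± 4.81 CPM in old and 107 ± 11.0 CPM in young libraries (-0.56 ± 0.12, adjusted p = 0.0094), Kif11 137 ± 17.3 CPM in old and 203 ± 29.2 CPM in young libraries (-0.57 ± 0.13, adjusted p = 0.0198) and Tpx2 181 ± 24.1 CPM in old and 249 ± 15.3 CPM in young libraries (-0.46 ± 0.11, adjusted p = 0.0299). Top2a, a topoisomerase of dividing cells, had 1128 to 1298 CPM in old and 1289 to 1563 CPM in young libraries and did not pass (log2 -0.27 ± 0.10, adjusted p = 0.185).

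The summed level of the 34 genes was 10723 to 12343 CPM in old and 13152 to 14756 CPM in young libraries. Mki67, Kif11 and Tpx2 lost the call without old replicate 1. The number called was 2 without old replicate 1, 3 without old replicate 4 or without both old replicate 1 and young replicate 2, 7 without young replicate 3, 8 without old replicate 3 and 9 without young replicate 2. It was 8 without immunoglobulin genes in the library sizes, 8 with RLE size factors, 9 with no filter on low counts, 11 with DESeq2 and 0 with the replicate block. Erythroid precursors and early neutrophils divide as well, and the part of their markers in these values was not tested.

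**Figure D4:**
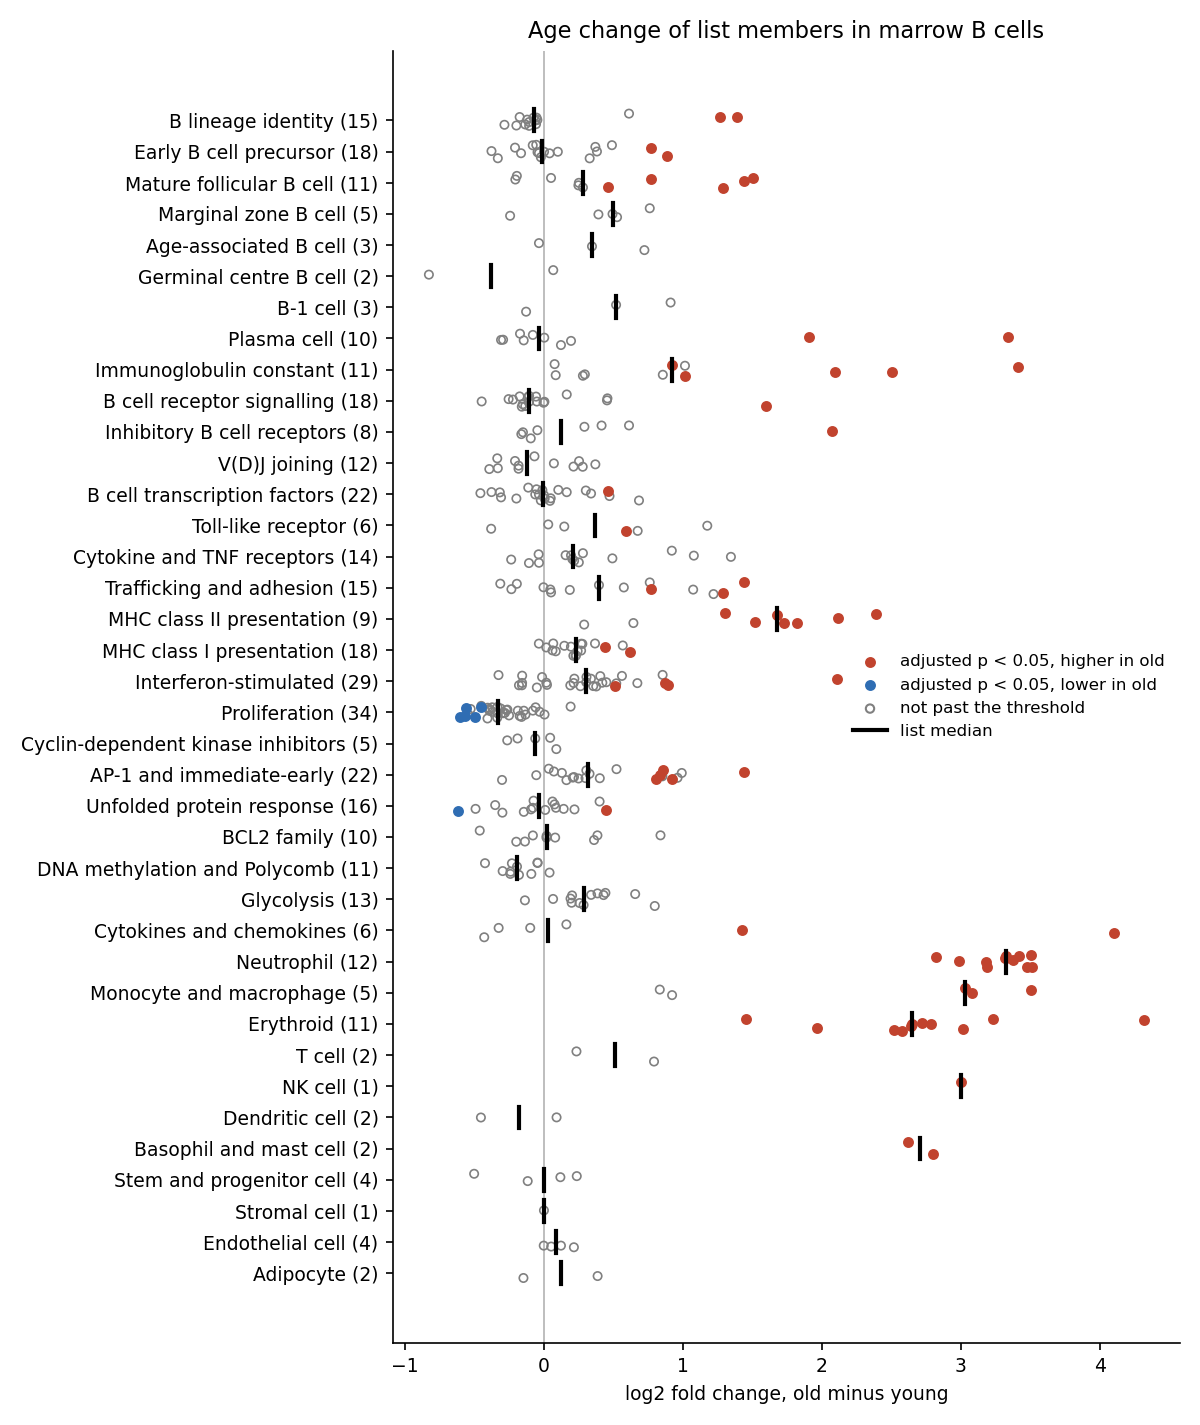
Log2 fold change, old minus young, of every tested member of each list in marrow B cells, with the number tested in brackets and the list median as a bar. Class II genes have a median of 1.68, proliferation genes -0.33, and the neutrophil and erythroid markers at the foot 3.33 and 2.65.

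Marker genes of other marrow cells had some of the highest fold changes. Of the 15 named genes with the highest fold change, 7 are in the neutrophil, monocyte or erythroid marker lists. All 12 neutrophil markers and all 11 erythroid markers rose, as did 3 of 5 tested monocyte and macrophage markers, 2 of 2 basophil and mast cell markers and the 1 tested NK cell marker. Over all genes tested 2.55% rose. Of 2 T cell, 2 dendritic cell, 4 stem and progenitor, 1 stromal, 4 endothelial and 2 adipocyte markers tested, 0 passed. The summed level of the 12 T cell markers was 32.4 to 54.2 CPM in old and 20.4 to 30.1 CPM in young libraries, without overlap.

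S100a8 (chr 3, 90668978 to 90670035), a calcium-binding protein abundant in neutrophils, had 2724, 2115, 2286 and 3787 CPM in old libraries, against 271, 256, 264, 202 and 230 CPM in young libraries (log2 3.48 ± 0.16, adjusted p = 2.88e-09). S100a9, its partner, averaged 1327 ± 385 CPM in old and 116 ± 26.3 CPM in young libraries (3.51 ± 0.20, adjusted p = 1.53e-08). Camp, an antimicrobial peptide of neutrophil granules, had 737, 595, 694 and 1165 CPM in old libraries, against 82.1, 92.9, 88.2, 63.7 and 57.0 CPM in young libraries (log2 3.38 ± 0.19, adjusted p = 1.53e-08). Old replicate 4 was the highest library in all 3 genes and no young library came near the lowest old one.

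Of the granule proteases, Elane averaged 78.8 ± 17.8 CPM in old and 6.88 ± 2.80 CPM in young libraries (3.51 ± 0.24, adjusted p = 1.22e-07), Ctsg 22.0 ± 4.31 CPM in old and 1.1 ± 0.686 CPM in young libraries (4.26 ± 0.37, adjusted p = 9.41e-07) and Prtn3 25.5 ± 12.9 CPM in old and 2.20 ± 1.01 CPM in young libraries (3.56 ± 0.41, adjusted p = 3.13e-05). Lcn2, an iron-sequestering protein of granules, averaged 152 ± 30.5 CPM in old and 14.1 ± 3.95 CPM in young libraries (3.42 ± 0.19, adjusted p = 1.53e-08). Trem3 and Fcnb, a receptor and a lectin of myeloid cells, were at log2 3.75 and 3.38, Lrg1, a leucine-rich glycoprotein of neutrophils, at 3.91, Chil1, a chitinase-like protein, at 3.36, and Ly6c2, the monocyte antigen Ly6C, at 3.50. Tnfaip2 and Apol11b, which are in no marker list, were at 4.12 and 3.91. The 15 genes kept their direction and their call in all 231 values under the alternatives.

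Car1 (chr 3, 14766216 to 14808368), a carbonic anhydrase of red cell precursors, had 26.3, 18.9, 25.3 and 14.6 CPM in old libraries, against 1.09, 1.06, 1.04, 0.506 and 1.27 CPM in young libraries, the highest fold change of all (log2 4.32 ± 0.35, adjusted p = 6.23e-07). Hbb-bs, an adult beta globin, had 7624, 7146, 8779 and 9204 CPM in old libraries, against 955, 1773, 1804, 1074 and 926 CPM in young libraries (log2 2.65 ± 0.19, adjusted p = 1.76e-07). Hba-a1 averaged 1714 ± 256 CPM in old and 249 ± 95.1 CPM in young libraries (2.79 ± 0.22, adjusted p = 3.12e-07). The globin genes come in near copies (Hbb-bs and Hbb-bt, Hba-a1 and Hba-a2), whose separate values are uncertain. Klf1, a transcription factor of red cell precursors and no globin, rose too (log2 2.58 ± 0.38, adjusted p = 0.000401).

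Summed over the lists, neutrophil markers were at 5881 to 11114 CPM in old and 597 to 836 CPM in young libraries, erythroid markers at 11909 to 15427 CPM in old and 1537 to 2963 CPM in young libraries, and monocyte and macrophage markers at 692 to 1451 CPM in old and 102 to 164 CPM in young libraries. Basophil and mast cell markers were at 58.7 to 163 CPM in old and 13.0 to 26.2 CPM in young libraries. Monocyte gene Lyz2 averaged 862 ± 258 CPM in old and 105 ± 20.1 CPM in young libraries (3.03 ± 0.19, adjusted p = 4.28e-08), the basophil protease gene Mcpt8 40.7 ± 16.7 CPM in old and 5.97 ± 2.21 CPM in young libraries (2.80 ± 0.32, adjusted p = 2.65e-05) and Prss34, also of basophils, 57.2 ± 25.7 CPM in old and 9.15 ± 3.87 CPM in young libraries (2.62 ± 0.32, adjusted p = 5.48e-05). The B lineage sum in the same libraries, given above, overlapped between the ages. The 12 neutrophil and 11 erythroid calls were as many without any 1 library.

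**Figure D5:**
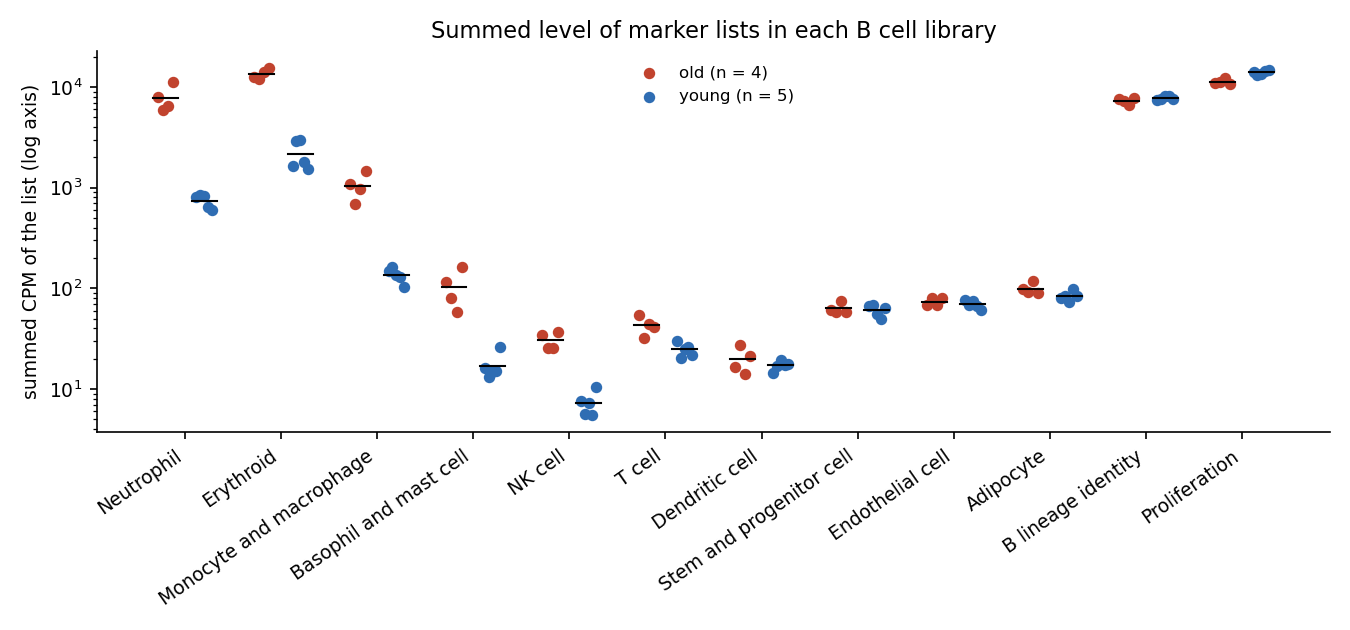
Summed level of marker lists in each B cell library (CPM, log axis), old left of young, with the mean as a bar. Neutrophil, erythroid, monocyte, basophil, NK cell and T cell sums do not overlap between the ages, while stem cell, endothelial and B lineage sums do.

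Lower genes changed less. The 15 named genes with the lowest fold change ran from log2 -1.04 to -0.68. Rc3h1, which encodes Roquin, a repressor of inflammatory mRNAs, had 65.4, 95.4, 67.3 and 89.3 CPM in old libraries, against 146, 140, 128, 166 and 141 CPM in young libraries (log2 -0.86 ± 0.14, adjusted p = 0.000857). Zfp942, a zinc finger gene, had 28.4, 28.3, 26.8 and 26.5 CPM in old libraries, against 45.7, 44.3, 48.0, 45.5 and 48.1 CPM in young libraries (log2 -0.75 ± 0.14, adjusted p = 0.00405), and the libraries of each age lay close together. Mdm1, a microtubule-binding protein of centrioles, averaged 18.5 ± 4.52 CPM in old and 38.0 ± 3.28 CPM in young libraries (-1.04 ± 0.19, adjusted p = 0.0034).

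Nek2, a mitotic kinase of the centrosome, averaged 39.9 ± 4.24 CPM in old and 64.4 ± 3.96 CPM in young libraries (-0.68 ± 0.13, adjusted p = 0.00503), Ccnf, cyclin F, 56.6 ± 11.5 CPM in old and 92.3 ± 14.1 CPM in young libraries (-0.71 ± 0.16, adjusted p = 0.0159, with the call lost without old replicate 1 or old replicate 4) and Neil3, a DNA glycosylase, 56.9 ± 11.5 CPM in old and 96.1 ± 9.68 CPM in young libraries (-0.76 ± 0.14, adjusted p = 0.00431). Socs1, the inhibitor of cytokine signalling through JAK kinases, had 33.8, 49.5, 43.0 and 34.9 CPM in old libraries, against 51.6, 88.0, 73.1, 64.7 and 69.2 CPM in young libraries (log2 -0.79 ± 0.17, adjusted p = 0.0133). The highest old library was close under the lowest young one. Ypel2 was at log2 -0.81 (adjusted p = 0.00113) and Rnf146, a ubiquitin ligase, at -0.93 (0.00856).

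Tatdn1, Arhgef39, Igsf3, Mapk6, an atypical MAP kinase, and Lrrn3 were at log2 -1.02, -1.01, -0.89, -0.73 and -0.72. Of the 15 genes 7 kept the call under every alternative. Tatdn1, Arhgef39, Igsf3, Socs1, Mapk6, Lrrn3 and Ccnf were among those that lost it under at least 1, with adjusted p up to 0.164. Tatdn1 kept the call in 7 of 15 alternatives and Arhgef39 in 8 of 15. Of 16 alternatives, Lrrn3 kept it in 5, Igsf3 in 6, Mapk6 in 9, and Socs1 and Ccnf in 13 each.

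Haematopoietic stem cells (HSC) are the other cell type sorted from marrow, with 7 old and 4 young libraries of the same ages and background, and the age change in B cells minus that in HSC was tested as an interaction. Of 13377 genes 467 (3.49%) passed, 258 (1.93%) higher and 209 (1.56%) lower by this difference. Within HSC 10.3% of genes passed, 5.54% higher and 4.76% lower in old libraries.

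Of 9 class II genes 5 rose and 1 fell in old HSC, with a median log2 fold change of 1.11. By the difference between the cell types 2 of the 9 passed, H2-DMa and H2-Ob, against 3.49% of all genes. Cd74 and H2-Aa rose in old libraries of both cell types. In the model of both cell types, Cd74 was at log2 1.71 ± 0.13 in B cells and 1.29 ± 0.13 in HSC (difference 0.42 ± 0.18, adjusted p = 0.212), and H2-Aa at 1.66 ± 0.16 in B cells and 1.69 ± 0.17 in HSC (difference -0.03 ± 0.22, adjusted p = 0.962). H2-DMa changed by 1.80 ± 0.19 in B cells and 0.06 ± 0.15 in HSC, a difference of 1.74 ± 0.24 (adjusted p = 8.94e-05). H2-Ob, at 0.27 ± 0.18 in B cells and -1.21 ± 0.24 in HSC, also differed (1.48 ± 0.30, adjusted p = 0.00514). Neutrophil markers were higher in old HSC libraries as well, 8 of 12 of them past the threshold with a median log2 fold change of 1.79, and 0 of the 12 differed between the cell types. Of 11 erythroid markers 1 differed, Car2, a carbonic anhydrase (1.11 ± 0.15, adjusted p = 0.000104).

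Genes with the highest difference were Cxcl2, Csf3r, Rgs1, Tnfaip2, Ccl5 and Nkg7. Csf3r, the G-CSF receptor of neutrophils and their precursors, averaged 10.9 ± 3.96 CPM in old and 0.530 ± 0.504 CPM in young B cells, and 34.2 ± 3.98 CPM in old and 27.7 ± 10.4 CPM in young HSC (difference 3.94 ± 0.55, adjusted p = 0.000104). Rgs1, a brake on G protein signalling, averaged 13.5 ± 5.68 CPM in old and 1.93 ± 1.19 CPM in young B cells, and 135 ± 26.4 CPM in old and 312 ± 239 CPM in young HSC (difference 3.90 ± 0.66, adjusted p = 0.00110). The high young HSC value of Rgs1 had a wide spread, from 122 to 662 CPM.

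Genes with the lowest difference were Matn4, Rorb, Tnip3, Mt2, Ramp2 and Plscr2, which rose in old HSC. Ramp2, a subunit of the adrenomedullin receptor, averaged 12.2 ± 2.37 CPM in old and 13.8 ± 2.84 CPM in young B cells, and 56.6 ± 10.7 CPM in old and 6.03 ± 1.94 CPM in young HSC (difference -3.41 ± 0.32, adjusted p = 4.88e-07). Mt2, a metallothionein, averaged 8.05 ± 2.79 CPM in old and 4.86 ± 0.853 CPM in young B cells, and 72.1 ± 9.07 CPM in old and 3.62 ± 2.25 CPM in young HSC (difference -3.51 ± 0.41, adjusted p = 9.88e-06). Matn4 was at 0 CPM in all old and at most 0.556 CPM in young B cells, so its fitted difference gives no size. The age changes of Ighm and Igkc were higher in HSC than in B cells (differences of -3.07 ± 0.62 and -3.67 ± 0.74, adjusted p = 0.00549 and 0.00532). Ighm itself did not pass in B cells. The part of B lineage cells in the HSC libraries was not tested.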

How the data were processed

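RNA from sorted cells was sequenced with a 3-prime biased poly(A) protocol with a 10 bp UMI and an 8 bp index, per the labels' protocols. No source used here says whether UMIs were de-duplicated. Per the submitters' processing notes, which list no settings, the authors used STAR, featureCounts 2.0.1, GRCm38.p6 and mm10. The deposited values are raw counts per gene, made by the authors as a table of 55484 genes and 170 libraries. Of these, 26 entries whose names had turned into dates (at most 0.195% of counts) were left out. Coordinates are GENCODE M21 on GRCm38.

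The counts of the 9 libraries went through the quasi-likelihood functions glmQLFit and glmQLFTest of edgeR 4.0.16 (R 4.3.3) with TMM factors. The function filterByExpr removed low genes first (min.count 10, min.total.count 15). Adjusted p is Benjamini-Hochberg over all genes tested, with a threshold of 0.05. CPM are counts scaled to 1000000 per TMM-scaled library. The difference from HSC is an interaction term over 4 groups. Library shares were compared by the exact two-sided permutation test of group means over libraries. On simulated counts 80.2% of 2-fold and 94.7% of 4-fold changes were recovered, with 5.14% false calls. Among 16 pairs of replicates 0 were identical (chi-square per degree of freedom at least 4.15).

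The comparison, members, 27 gene lists and 12 marker lists were chosen with earlier results of these data known. To be named, a gene had to pass the threshold, average 20 CPM or more where it was higher, and separate all old from all young libraries. The 15 highest and 15 lowest log2 fold changes were taken, or the 6 highest and 6 lowest past the threshold for the interaction with no rule on overlap. Sex-linked genes, unnamed models, pseudogenes, antisense genes and immunoglobulin segments were left out of these. Members of the lists could be named as well. Promoters are RefSeq sequences matched by symbol, and the X box was shortened to 8 letters after a longer pattern had been searched. Alternatives were DESeq2 1.42.0, RLE size factors, a count minimum of 50, no filter, the replicate number as a block, tests without immunoglobulin segments, medians in place of means, and leaving out each library. Leaving out old replicate 1 together with young replicate 2 was added after the data were seen. Counts of genes were taken as unchanged within a factor of 1.5. Some genes of the lists and rules are not reported here by name.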

Additional observations from a re-analysis of the deposited data

Results flagged for a closer look

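Among the genes named, 274 groups of libraries were checked for a library far from the others of its age. In 14 there was one, which is near the 1 in 20 that chance gives. Old replicate 4 was high in the granule gene Lcn2 (198 CPM, against 136 to 138 CPM in the other old libraries) and in Ighg1 (60.6 CPM, against 3.54 to 8.25 CPM), and low in Spn (60.2 CPM, against 75.9 to 76.1 CPM). Old replicate 2 was low in H2-Ab1 (328 CPM, against 415 to 428 CPM) and high in Klf2 (295 CPM, against 256 to 261 CPM). Old replicate 1 was low in Mki67 at 442 CPM, against 587 to 610 CPM.

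Young replicate 2 was low in Pax5 (524 CPM, against 908 to 999 CPM in the other young libraries) and high in Cd79a (198 CPM, against 128 to 140 CPM) and H2-Q7 (99.2 CPM, against 74.3 to 81.5 CPM). Young replicate 1 was high in Lrg1 (3.99 CPM, against 0.845 to 1.57 CPM) and H2-Eb1 (39.2 CPM, against 22.5 to 26.1 CPM), and low in Slpi (5.45 CPM, against 10.2 to 10.6 CPM). Young replicate 4 was high in Vpreb1 (709 CPM, against 592 to 618 CPM) and low in Mki67 (684 CPM, against 800 to 842 CPM).

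The age change in B cells minus that in HSC passed edgeR's interaction test for the 12 genes named. On the log2 scale it was 4.67 for Cxcl2, 3.94 for Csf3r, 3.90 for Rgs1, 3.50 for Tnfaip2, 3.43 for Ccl5 and 3.33 for Nkg7. It was -7.31 for Matn4, -4.50 for Rorb, -3.98 for Tnip3, -3.51 for Mt2, -3.41 for Ramp2 and -3.18 for Plscr2. Cxcl2, which reached 112 CPM in 1 young HSC library and averaged 4.52 ± 1.11 CPM in old and 1.41 ± 1.65 CPM in young B cells, lost the call in 9 of 12 alternatives (adjusted p up to 0.239). Ccl5, Matn4 and Tnip3 lost it in some (adjusted p up to 0.0637, 0.0604 and 0.126). For Tnip3 this was only without young B cell replicate 2. Matn4 and Tnip3 were near 0 in B cells, so their values depend on the fit.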

How the results depend on the processing

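The count of changed genes, 367, was 228 with a count minimum of 50 (174 higher, 54 lower), 667 with no filter on low counts (431 higher, 236 lower) and 499 with DESeq2, whose 149 lower genes exceed the 82 of edgeR by more than 1.5 times, and 366 genes were called by both tools. Without single libraries the lower count ran from 41 to 165, and it was 188 without old replicate 1 and young replicate 2 together. Fewer genes were tested with the count minimum of 50, and the cause of these shifts was not tested. Replicate numbers did not pair the libraries. Correlations of deviations between old and young libraries of the same number ran from -0.071 to 0.076, and with the replicate block, 244 genes were called (30 lower), with 0 proliferation genes and 1 mature follicular gene. The difference from HSC held 707 genes with DESeq2 (328 lower) and 786 with no filter (415 higher, 371 lower), against 467. With group medians the differences in immunoglobulin, IgD, switched and kappa shares were 0.329, 1.58, 8.26 and 11.9 percentage points and missed the threshold (exact permutation test, adjusted p = 0.0556 to 0.111). No value changed direction among the named genes and shares under the alternatives. At this depth 80.2% of simulated 2-fold changes were recovered, so smaller changes can be missed.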

Other observations

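Several genes outside the lists were looked up after their values were seen, because they act beside the class II genes or on the surface of B cells, and no test of a group was made on them. Ifi30, a lysosomal thiol reductase that opens disulfide bonds of antigens, averaged 41.9 ± 7.80 CPM in old and 18.2 ± 3.66 CPM in young libraries (edgeR log2 1.20 ± 0.20, adjusted p = 0.00121). Ctss, the cathepsin that trims the invariant chain, averaged 136 ± 35.1 CPM in old and 79.0 ± 9.05 CPM in young libraries (0.78 ± 0.16, adjusted p = 0.00769) and is abundant in monocytes too. Ctse and Ctsh, further cathepsins, were at log2 1.38 and 0.88 (adjusted p = 7.12e-05 and 0.0186), and Ctsh lost the call without old replicate 2 or old replicate 4. Of surface genes, Cd52 had 526, 414, 470 and 491 CPM in old libraries, against 199.7, 262, 259, 185 and 186 CPM in young libraries (log2 1.12 ± 0.13, adjusted p = 3.13e-05). All old libraries were above all young ones. Fcmr, the receptor for IgM, averaged 96.6 ± 12.3 CPM in old and 46.1 ± 7.37 CPM in young libraries (1.07 ± 0.14, adjusted p = 0.000144), Btla, an inhibitory receptor of lymphocytes, 23.6 ± 7.82 CPM in old and 8.53 ± 1.95 CPM in young libraries (1.46 ± 0.27, adjusted p = 0.00387), and Cd83, which stabilises class II molecules on the cell surface, 29.3 ± 7.25 CPM in old and 13.0 ± 5.28 CPM in young libraries (1.21 ± 0.28, adjusted p = 0.0217). Cd83 lost the call without any of old replicates 1 and 3 and young replicates 1 and 5 (adjusted p up to 0.101). Ccnd2, a D cyclin of B cells, averaged 738 ± 120 CPM in old and 307 ± 60.7 CPM in young libraries (1.27 ± 0.15, adjusted p = 4.81e-05), opposite in direction to the mitotic genes.

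More mitotic genes fell outside the proliferation list, also looked up after their values were seen. Esco2, which ties sister chromatids together, had 193, 182, 189 and 207 CPM in old libraries, against 288, 286, 268, 327 and 317 CPM in young libraries (log2 -0.62 ± 0.10, adjusted p = 0.00146), without overlap. Cenpe, a motor at kinetochores, averaged 263 ± 44.7 CPM in old and 395 ± 60.7 CPM in young libraries (-0.59 ± 0.14, adjusted p = 0.0246) and Hmmr, a spindle protein, 110 ± 18.5 CPM in old and 158 ± 19.5 CPM in young libraries (-0.52 ± 0.13, adjusted p = 0.0414). Cenpe lost the call without any of old replicates 1 and 4 and young replicate 1, and Hmmr without any of these and young replicates 3 and 5. The 1 gene lower by more than 4-fold was Rgs16, a brake on G protein signalling, with 1.61, 5.89, 6.07 and 2.21 CPM in old libraries, against 13.8, 24.6, 21.9, 11.6 and 8.02 CPM in young libraries (log2 -2.03 ± 0.43, adjusted p = 0.0114), and it lost the call without old replicate 4. Of 41 small noncoding RNA genes tested 11 rose and 0 fell, against 2.55% of all genes tested that rose. Such genes took 0.718% to 0.923% of counts in old and 0.545% to 0.737% in young libraries.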
